A study of Mus musculus with 8 samples.

Results

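Tumour-associated macrophages (TAM) of the bone marrow of myeloma-bearing mice, 4 libraries in all, were set against macrophages of naive mice, 2 libraries. The common response was taken as every gene with a level of at least 5 CPM (read counts scaled to a common library total) in at least 2 of the 6 macrophage libraries whose 4 TAM values all lay on one side of both naive values. Of 10322 genes with that level, 2568 met the rule, which is 24.9%. In 900 of them the TAM values were the higher ones (8.72% of the genes with that level) and in 1668 the lower ones (16.2%). The rule uses the comparison itself, so these shares are descriptions, and nothing is read from the fact that members differ. A gene with 5 CPM in both naive libraries and in no TAM library could only be lower, as with Gfra4 and Marco below. A gene with 5 CPM in TAM libraries alone could not be lower. With 5 CPM in all 4 of them it could only be higher, as with Arhgef37, Bcl2a1d, Ccl5, Adora2a and Il27. The direction of such genes adds nothing to the list counts below.

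The study asked how macrophages of the marrow are programmed by multiple myeloma, a cancer of plasma cells. Vk*MYC myeloma cells, which come from a mouse model of the disease, carried green fluorescent protein (GFP), were purified by the plasma cell antigen CD138 and were injected into a tibia of wild-type mice of the B6 strain. Marrow cells high in F4/80 and low in CD11b were sorted as TAM and divided by GFP into cells in contact with myeloma (TAM in contact, GFP-positive, n = 2) and cells not in contact (TAM not in contact, GFP-negative, n = 2), and macrophages of naive wild-type B6 mice formed the control group (n = 2). The animals received no other treatment, both groups of mice had the same genotype and strain, and 2 plasma cell libraries of the same study are used below only as a reference level. The sources used here do not give the age of the mice, the time after injection or the number of animals behind a library. TAM libraries are labelled by mouse 1 or 2, and whether naive libraries came from separate mice is not stated, so p-values measure only the spread between these libraries. Contact is defined by GFP carried by the macrophage, so the label rests on the tumour's own marker.

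Resident marrow macrophages take up spent red cells and apoptotic neutrophils, recycle their iron, and carry scavenger receptors, vascular adhesion molecules and complement genes as lasting signs of residence. Macrophages that sense microbial products, dying cells or cytokines of the tumour necrosis factor (TNF) and interleukin 1 families switch on immediate early genes within minutes, and then genes governed by nuclear factor kappaB (NF-kB), a family of transcription factors held in the cytoplasm by inhibitor proteins until a signal removes them. Interferon adds guanylate-binding proteins and antigen presentation by the major histocompatibility complex (MHC).

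The libraries held 28887725 to 46873056 counts. Immunoglobulin transcripts, the product of plasma cells, made up 9.13% of the counts of library 2 of TAM not in contact and 0.166% to 0.632% in the other 5. The correlation of log2 CPM, across genes within a pair of libraries, was 0.968 between the naive libraries, 0.951 between TAM in contact and 0.850 between TAM not in contact, and library 1 of TAM not in contact correlated at 0.908 with library 1 of TAM in contact. Library 2 of TAM in contact carried the Y-linked transcript Ddx3y at 88.4 CPM and Xist at 0, and the other 5 libraries carried Xist at 17.5 to 53.8 CPM, so the libraries labelled mouse 2 in both TAM groups did not come from 1 animal. Without library 2 of TAM not in contact, which stood apart in both measures, 4485 genes met the rule (1928 higher and 2557 lower), and 2549 of them were among the 2568.

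Genes of the sort overlapped between the groups, with 1 exception. Values are given throughout in the order TAM not in contact 1 and 2, TAM in contact 1 and 2, then naive 1 and 2. Adgre1, which encodes the F4/80 antigen, stood at 1223, 600, 519 and 550 CPM in TAM and at 1134 and 587 CPM in naive macrophages (log2 fold change -0.15 ± 0.44 SE, adjusted p = 0.893, edgeR's quasi-likelihood test with Benjamini-Hochberg adjustment, as for all adjusted p-values below unless another tool is named). Cd68, a lysosomal membrane protein of macrophages, stood at 1663, 671, 579 and 780 CPM against 1087 and 531 CPM. The exception was Itgam, which encodes CD11b, an antigen the sort itself selected on, at 73.0, 84.0, 215 and 232 CPM in TAM and 245 and 331 CPM in naive macrophages (log2 fold change -0.97 ± 0.23 SE, adjusted p = 0.205), with 68.7% of its exon bases shared with other genes. Ptprc, the common leukocyte antigen CD45, also overlapped, at 1943, 844, 2102 and 2045 CPM against 986 and 1072 CPM. Transcripts of these antigens were thus present in all 6 libraries, which does not show how pure the sort was. Markers of neutrophils, taken up again below, summed to 10432, 21726, 56908 and 33156 CPM in TAM and 57478 and 90102 CPM in naive macrophages.

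With 4 libraries against 2 the groups did not overlap for many genes, and the number past a corrected threshold depended on the tool. Of 15522 genes tested, edgeR called 0 (0.0%) for TAM over naive, and the smallest adjusted p was 0.0787. At an unadjusted p under 0.05 edgeR had 2361 genes (15.2%), 1021 higher in TAM (6.58%) and 1340 lower (8.63%). DESeq2 called 1138 (7.33%), 545 higher (3.51%) and 593 lower (3.82%), and limma-voom called 0. All 2568 genes of the common response passed the filter on low counts, and the unadjusted edgeR threshold was met by 620 of the 900 higher and 660 of the 1668 lower ones, the DESeq2 threshold by 360 and 359. "Higher" and "lower" below mean that all 4 TAM values lay above or below both naive values, not that edgeR called the gene. Each list count below stands beside the shares over all genes with the required level, 8.72% higher and 16.2% lower. Some genes stand on several lists, such as Bcl3, Junb, Cd40, Birc3 and Cxcl10, so the list counts are not independent of each other.

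The split between higher and lower genes depended on how libraries were scaled. On library totals 35.0% of the common response was higher in TAM, and on effective library sizes from the trimmed mean of M-values (TMM) it was 58.1%, with 1456 genes higher and 1048 lower, 1948 of them shared with the rule on totals. The TMM scaling shifts TAM over naive by 0.15 on the log2 scale for every gene. The median log2 fold change over the 10322 genes was 0.06 with TMM and -0.10 on library totals, so small differences near these values have no settled direction. The median log2 fold change was 0.87 for the higher genes and -0.62 for the lower ones, 389 and 467 exceeded a log2 of 1, and a gap of at least 1.5-fold between the nearest TAM and naive values held for 177 higher and 267 lower genes. At the edge of the rule lay Tap2, with a lowest TAM value of 158.4 CPM and a highest naive value of 158.4 CPM, and just outside lay Ndufb8, with a lowest TAM value of 42.35 CPM and a highest naive value of 42.37 CPM.

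**Figure D1:**
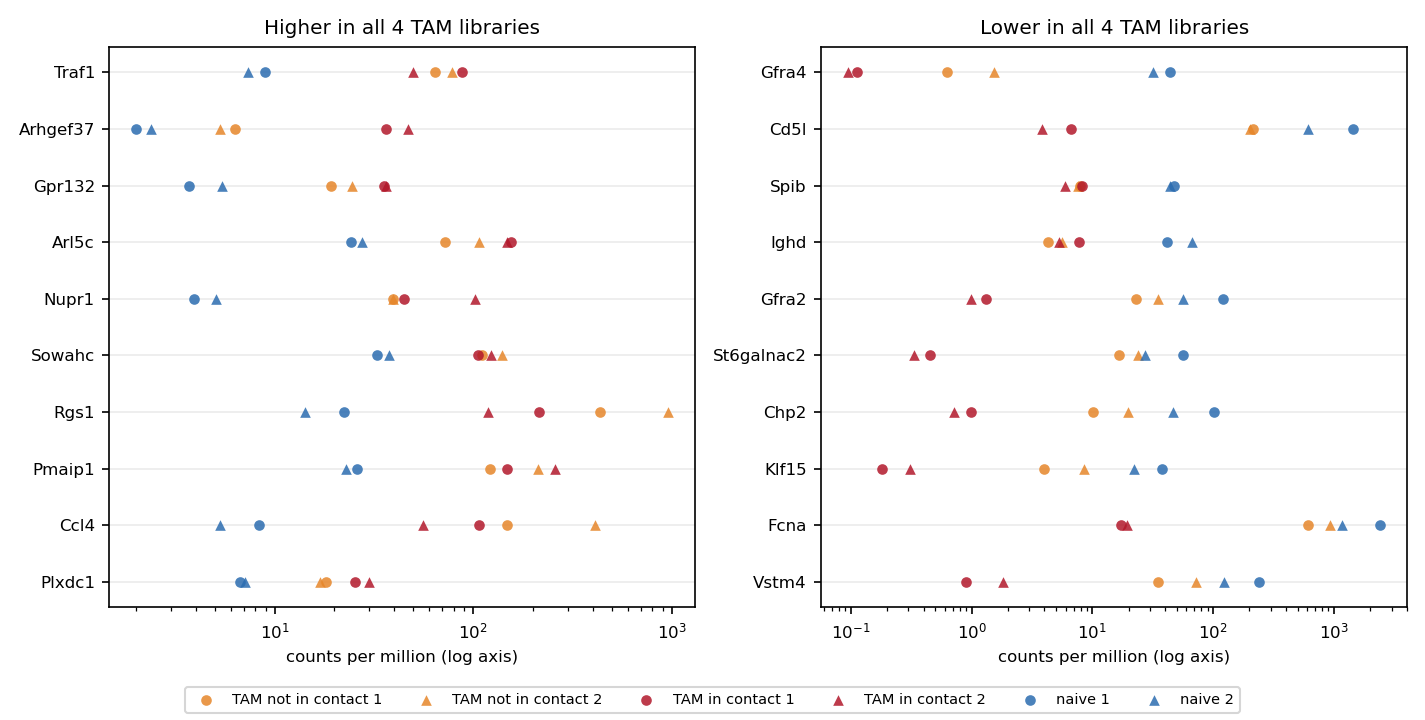
CPM (log axis) of the 10 higher and 10 lower genes with the smallest p, 1 point per library, with colours for the groups and shapes for library 1 (circle) and library 2 (triangle). Traf1 lies at 49.6 to 88.0 CPM in TAM and at 7.34 and 8.94 CPM in naive macrophages, and for Gfra4, Cd5l and Gfra2 the TAM not in contact lie between TAM in contact and naive macrophages.

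Among higher genes the smallest p belonged to Traf1, an adaptor of TNF receptors on chromosome 2 (34941750 to 34961772, minus strand, build GRCm38). It stood at 64.4, 78.0, 88.0 and 49.6 CPM in TAM and at 8.94 and 7.34 CPM in naive macrophages, a log2 fold change of 3.24 ± 0.33 SE (adjusted p = 0.0837, DESeq2 adjusted p = 1.69e-17). Every TAM value was several times the higher naive value, and the TAM groups overlapped, with a log2 fold change over naive of 3.22 in contact and 3.26 not in contact. Gpr132, a receptor for lactate and oxidised lipids, stood at 19.2, 24.4, 35.6 and 36.5 CPM against 3.69 and 5.43 CPM (2.77 ± 0.29, adjusted p = 0.0837). Rgs1, a regulator that ends signalling by G proteins behind chemokine receptors, stood at 437, 962, 215 and 119 CPM against 22.4 and 14.3 CPM (4.36 ± 0.54, adjusted p = 0.0998). For Gpr132 TAM in contact were the higher of the TAM groups, and for Rgs1 TAM not in contact were.

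Other leading higher genes came from stress and death pathways and from less described families. Pmaip1, which encodes the BH3-only protein NOXA that frees the cell death machinery, stood at 122, 213, 148 and 260 CPM in TAM and 25.9 and 22.9 CPM in naive macrophages (3.07 ± 0.41, adjusted p = 0.106). Nupr1, a small stress-induced nuclear protein, stood at 39.6, 39.6, 45 and 102 CPM against 3.90 and 5.09 CPM (3.74 ± 0.45, adjusted p = 0.0998), with 1 library of TAM in contact above the other 3. The remaining ones were Arhgef37, Arl5c, Sowahc, Plxdc1 and the chemokine gene Ccl4, with log2 fold changes of 1.83 for Plxdc1 to 4.60 for Ccl4. Arl5c, an ARF-like GTPase, stood at 72.5 to 155 CPM in TAM and 24.2 and 27.5 CPM in naive macrophages. Sowahc, an ankyrin repeat protein, stood at 106 to 140 CPM in TAM and 32.9 and 37.8 CPM in naive macrophages, and for both genes the groups lay well apart.

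The steadiest higher genes, those with the smallest spread over the 4 TAM libraries among genes at a log2 fold change of 1 or more, were Nfe2l2, Zbtb41, Nfkb2, H2-K1, Coa7 and Rcbtb1. Nfe2l2, which encodes NRF2, the master regulator of the antioxidant response, stood at 546, 496, 489 and 462 CPM in TAM and at 211 and 258 CPM in naive macrophages (1.24 ± 0.26, adjusted p = 0.179). Nfkb2, the precursor of the p52 subunit of NF-kB, stood at 200, 218, 202 and 175 CPM against 112 and 90.3 CPM (1.12 ± 0.23, adjusted p = 0.166). H2-K1, a classical MHC class I heavy chain, stood at 2877, 2221, 2520 and 2600 CPM against 1392 and 1196 CPM (1.13 ± 0.36, adjusted p = 0.257). In these 3 genes the 4 TAM libraries varied little among themselves, and all lay above both naive libraries. Exons of other genes cover 18.1% of the exons of Nfkb2.

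Regulators of NF-kB and adaptors of TNF receptors formed the list with the largest share of higher genes. Of 28 such genes, all with the required level, 20 were higher, 0 were lower and 8 overlapped, where 8.72% of all genes were higher. The list's median log2 fold change was 1.29, against 0.02 over all genes tested. At an unadjusted p under 0.05 edgeR had 22 of the 28 higher and 0 lower, and DESeq2 called 19 higher. On TMM sizes 21 were higher, and 23 were without library 2 of TAM not in contact.

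By role, the higher genes covered most layers of the pathway. Of the subunits, Nfkb2, Rel, Rela and Relb were higher and Nfkb1, the precursor of p50, overlapped at 241, 138, 203 and 321 CPM in TAM and 185 and 141 CPM in naive macrophages. Rel stood at 58.8, 158, 87.5 and 75.4 CPM in TAM and 26.7 and 22.4 CPM in naive macrophages (2.08 ± 0.43, adjusted p = 0.171). Of the inhibitors, which are themselves NF-kB targets, Nfkbia, Nfkbib, Nfkbie and Nfkbiz were higher. Nfkbia, named here after its values were seen, stood at 329, 1523, 435 and 757 CPM against 166 and 186 CPM (2.22 ± 0.68, adjusted p = 0.252). Tnfaip3, the ubiquitin-editing brake A20, stood at 149, 2167, 125 and 131 CPM against 78.0 and 60.1 CPM (2.61 ± 1.01, adjusted p = 0.313). Its fold thus rested on library 2 of TAM not in contact, while the other 3 TAM libraries lay close together above the naive ones.

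A single kinase of the list, Map3k8, and survival factors of the pathway were higher as well, and of its receptors some were. Map3k8, the kinase TPL2 that links NF-kB to ERK, stood at 143, 169, 124 and 163 CPM in TAM and 51.8 and 39.1 CPM in naive macrophages (1.86 ± 0.27, adjusted p = 0.114). Among TNF receptors, Tnfrsf1b (TNFR2) was higher, at 760, 571, 1137 and 2370 CPM against 403 and 269 CPM, and Tnfrsf1a (TNFR1) overlapped, at 220, 204, 272 and 343 CPM against 284 and 303 CPM. Sod2, the mitochondrial superoxide dismutase and an NF-kB target, stood at 106, 160, 118 and 87.7 CPM against 49.0 and 44.6 CPM (1.47 ± 0.26, adjusted p = 0.135). Bcl2a1d, an anti-apoptotic relative of BCL2, stood at 16.2, 6.06, 16.5 and 17.1 CPM against 0.832 and 0.900 CPM (4.13 ± 0.57, adjusted p = 0.106), and since the Bcl2a1 copies are nearly identical the share of reads given to each copy is uncertain.

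**Figure D2:**
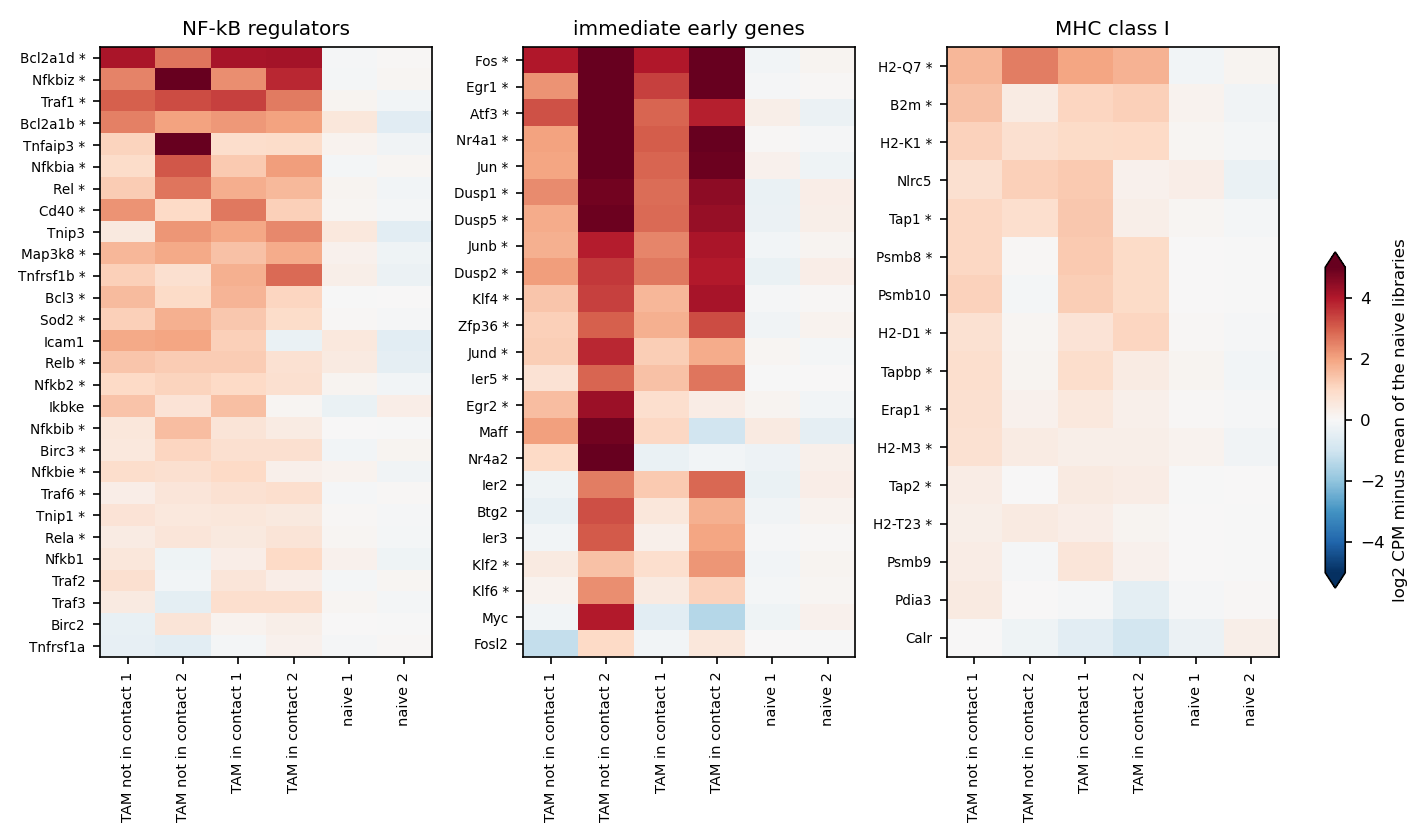
Log2 CPM of each library minus the mean of the naive libraries, for all genes of 3 lists with at least 5 CPM in 2 libraries, where an asterisk marks the higher genes (20 of 28 NF-kB regulators, 16 of 23 immediate early genes, 11 of 16 MHC class I genes) and the colour scale saturates at 5. Columns are libraries, and the 2 libraries numbered 2 of TAM carry the darkest cells of the immediate early genes.

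Immediate early genes, which cells transcribe within minutes of a signal, were higher at a similar share and with larger folds. Of 27 such genes 23 had the required level, 16 were higher and 0 lower, and the median log2 fold change over the 27 was 2.67. DESeq2 called 16 higher, and edgeR had 15 higher at an unadjusted p under 0.05. Fos, a subunit of the AP-1 transcription factor, stood at 903, 4479, 886 and 2387 CPM in TAM and 50.6 and 61.4 CPM in naive macrophages (5.37 ± 0.96, adjusted p = 0.135). Dusp1, a phosphatase that ends MAP kinase signalling, stood at 624, 3386, 822 and 2651 CPM against 95.1 and 151 CPM (4.07 ± 0.97, adjusted p = 0.206). Atf3, a stress-induced repressor, stood at 120, 1331, 99.7 and 198 CPM against 16.4 and 10.6 CPM (4.74 ± 1.12, adjusted p = 0.205).

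The level of this list differed between TAM libraries more than that of the NF-kB list. The highest of the 4 TAM values fell in library 2 of TAM not in contact for 10 of the 16 genes and in library 2 of TAM in contact for 6, and the lowest in library 1 of TAM not in contact for 13. The ratio of the highest to the lowest TAM value had a median of 5.62 over the 16 genes (3.41 to 26.4), and a median of 1.73 over the 20 higher NF-kB genes (1.14 to 17.4). Summed over the 27 genes the level was 5451, 34270, 7766 and 23377 CPM in TAM and 1962 and 2406 CPM in naive macrophages. Without library 2 of TAM not in contact the list still had 16 higher genes, and its median log2 fold change was 1.55. Both the libraries with the lower sums and those with the higher sums lay above the naive libraries.

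MHC class I presentation was the third list of this kind, with smaller folds. Of 17 such genes 16 had the required level, 11 were higher and 0 lower, and 13 were higher on TMM sizes. The median log2 fold change was 0.84, DESeq2 called 3, and edgeR had 9 higher at an unadjusted p under 0.05. The higher genes held the heavy chains H2-K1, H2-D1, H2-Q7, H2-T23 and H2-M3, the light chain B2m, the peptide transporter Tap1 and Tap2, the loading factor Tapbp, the immunoproteasome subunit Psmb8 and the trimming peptidase Erap1. B2m stood at 5281, 2560, 4074 and 4371 CPM in TAM and 2180 and 1672 CPM in naive macrophages (1.23 ± 0.48, adjusted p = 0.313). Tap1 stood at 352, 304, 437 and 210 CPM against 184 and 161 CPM (1.06 ± 0.35, adjusted p = 0.266). H2-Q7 stood at 55.2, 104, 68.5 and 58.8 CPM against 15.9 and 19.2 CPM (2.16 ± 0.32, adjusted p = 0.114), with reads it may share with near-identical H2-Q copies.

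Of 15 MHC class II presentation genes 3 were higher (Cd74, Cd40 and Ctss) and 1 lower (H2-Ob). The higher genes numbered 9 without library 2 of TAM not in contact and 8 without naive library 1, so this count depended on single libraries. Cd40, the receptor by which T cells license macrophages, stood at 80.7, 34.7, 108 and 39.3 CPM in TAM and 18.2 and 16.1 CPM in naive macrophages (2.07 ± 0.55, adjusted p = 0.219).

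Interferon-stimulated genes were higher in part. Of 28 such genes, all with the required level, 5 were higher (Gbp2, Gbp3, Gbp5, Cxcl10 and Zbp1) and 1 was lower (Oas2), with a list median of 1.33 and 8 DESeq2 calls, all higher. The higher genes numbered 11 without library 2 of TAM in contact and 8 without naive library 1. Gbp2, a guanylate-binding protein that attacks membranes around microbes, stood at 235, 143, 304 and 96.9 CPM in TAM and 44.0 and 37.5 CPM in naive macrophages (2.40 ± 0.54, adjusted p = 0.194). Zbp1, a sensor of Z-form nucleic acids that can start necroptosis, stood at 135, 67.8, 220 and 95.2 CPM against 27.8 and 25.0 CPM (2.41 ± 0.48, adjusted p = 0.164). Cxcl10, a chemokine for T cells, stood at 157, 227, 200 and 17.1 CPM against 14 and 9.0 CPM (3.78 ± 1.02, adjusted p = 0.222). Library 2 of TAM in contact had the lowest TAM value for Gbp2 and Cxcl10, and library 2 of TAM not in contact for Zbp1.

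Sequences before the start sites of these genes bear on whether the higher genes share a motif. RefSeq gives promoter windows on GRCm38.p6 for 704 of the 900 higher and 1345 of the 1668 lower genes, some with more than 1 start site, and the 250 bases before each start were searched on both strands. The kappaB consensus, the site class that NF-kB binds, matched in 76 of 887 windows of higher genes (8.57%), in 59 of 1709 windows of lower genes (3.45%), in 476 of 10480 windows of genes with the required level (4.54%) and in 1281 of all 32851 windows (3.90%). The interferon-stimulated response element, searched as GAAA, any 2 bases and GAAA, matched in 4.06%, 1.81%, 3.01% and 2.98% of the same windows, and the cyclic AMP response element TGACGTCA in 3.27%, 1.76%, 2.60% and 1.55%. The AP-1 site TGANTCA matched in 5.98%, 5.27%, 4.52% and 6.75%, and the PU.1 site GAGGAAGT in 3.83%, 2.87%, 2.75% and 2.44%. For AP-1 the higher genes thus lay above the share for genes with the required level and below that for all windows, and for the cyclic AMP element the lower genes lay below the first and above the second. A match is a description of letters and not a bound site, and motifs can overlap each other.

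Of the 20 higher NF-kB regulators, 16 had a RefSeq window and 7 of these had a kappaB match (Nfkb2, Nfkbia, Nfkbie, Rel, Sod2, Tnfaip3 and Tnip1), and of the 11 higher MHC class I genes 10 had a window and 5 a match (B2m, H2-D1, H2-K1, H2-M3 and H2-Q7). Of 15 higher immediate early genes with a window, Fos alone had a kappaB match. The stretches below, 5′ to 3′ on the gene's strand, are shown for 3 regulators and 2 heavy chains whose values are given above, with bases of a kappaB match in capitals. In Nfkb2 (chr19:46304658-46304736, plus strand) 3 matches lie within the last 39 bases before the start, and the first 2 overlap.
Nfkb2: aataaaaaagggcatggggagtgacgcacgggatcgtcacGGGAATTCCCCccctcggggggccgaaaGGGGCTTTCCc
Nfkbia (chr12:55492648-55492716, minus strand): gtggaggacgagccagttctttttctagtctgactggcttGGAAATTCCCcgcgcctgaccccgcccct
Sod2 (chr17:13007716-13007805, plus strand): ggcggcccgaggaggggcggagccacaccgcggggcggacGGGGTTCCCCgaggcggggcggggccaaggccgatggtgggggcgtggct
H2-K1 (chr17:34000408-34000498, minus strand): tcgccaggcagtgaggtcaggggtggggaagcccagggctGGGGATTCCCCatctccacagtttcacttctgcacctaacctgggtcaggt
H2-Q7 (chr17:35438982-35439071, plus strand): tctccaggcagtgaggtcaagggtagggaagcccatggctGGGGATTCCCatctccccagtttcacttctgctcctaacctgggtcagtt

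The matched letters of H2-K1 and H2-Q7 are the same over 10 bases and lie at a similar distance from the start, 111 and 133 bases before it. All 4 of the higher interferon-stimulated genes with a window had an interferon-stimulated response element. It is shown in capitals for the neighbouring genes Gbp2 and Gbp3 on chromosome 3, read on the gene's strand as TTTC pairs, and in Gbp3 as 2 overlapping matches. The third stretch is that of Dusp1, the 1 higher immediate early gene of 15 with a cyclic AMP response element.
Gbp2 (chr3:142620564-142620653, plus strand): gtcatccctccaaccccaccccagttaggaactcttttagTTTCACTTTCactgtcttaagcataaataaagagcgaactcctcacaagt
Gbp3 (chr3:142559959-142560043, plus strand): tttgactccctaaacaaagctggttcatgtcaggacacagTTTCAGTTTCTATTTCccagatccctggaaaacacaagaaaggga
Dusp1 (chr17:26508568-26508655, minus strand): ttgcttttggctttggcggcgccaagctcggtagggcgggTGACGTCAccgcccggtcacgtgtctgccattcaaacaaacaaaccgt

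Genes of chemokines and inflammatory cytokines were higher for a smaller part of their lists. Of 25 chemokine genes 17 had the required level, 5 were higher (Ccl2, Ccl3, Ccl4, Ccl5 and Cxcl10) and 0 lower, with a list median of 2.27 and 10 DESeq2 calls, all higher. Of this list 9 were higher without library 2 of TAM in contact. Ccl4, an inflammatory chemokine of the CC class, stood at 149, 413, 107 and 55.8 CPM in TAM and 8.32 and 5.30 CPM in naive macrophages (4.60 ± 0.62, adjusted p = 0.106). Ccl3, of the same class, stood at 84.9, 189, 67.4 and 253 CPM against 9.62 and 14.6 CPM (3.77 ± 0.73, adjusted p = 0.158). Ccl5 stood at 46.7, 20.8, 65.3 and 10.8 CPM against 3.29 and 3.29 CPM (3.59 ± 0.85, adjusted p = 0.205). The groups did not overlap for any of the 3, and the order of the TAM libraries differed from gene to gene.

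Of 24 inflammatory cytokine genes 15 had the required level, 4 were higher (Tnf, Il1b, Il12b and Il27) and 1 lower (Il15). Il1b, the precursor of interleukin 1 beta, stood at 322, 1735, 331 and 420 CPM in TAM and 40.7 and 51.7 CPM in naive macrophages (3.89 ± 0.77, adjusted p = 0.163). Tnf, which the title of the study names with Il6, stood at 23.7, 909, 27.0 and 66.4 CPM against 15.6 and 17.2 CPM (3.31 ± 1.38, adjusted p = 0.332, DESeq2 adjusted p = 0.0217). Its log2 fold change was 1.18 without library 2 of TAM not in contact. Il12b, the p40 subunit of interleukins 12 and 23, stood at 5.49, 9.76, 3.46 and 1.66 CPM in TAM and had 0 and 1 counts in the naive libraries, so no fold is given.

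Il6, the second cytokine of the title, did not reach 5 CPM in 2 libraries and is not in the common response. It stood at 1.77, 27.1, 2.34 and 0.498 CPM in TAM and 0.832 and 1.66 CPM in naive macrophages (1.99 ± 1.20, adjusted p = 0.465, DESeq2 adjusted p = 0.278), so that only library 2 of TAM not in contact stood clear of the others. Of 17 genes of interleukin 6 and STAT3 signalling with the required level, 4 were higher (Socs3, Socs1, Bcl3 and Junb) and 0 lower, and without library 1 of TAM not in contact 9 were higher and without naive library 2 it was 8. Socs3, the feedback inhibitor of the interleukin 6 receptor, stood at 123, 272, 162 and 567 CPM against 12.5 and 15.3 CPM (4.42 ± 0.72, adjusted p = 0.120). Bcl3, an atypical NF-kB inhibitor and STAT3 target, stood at 151, 98.0, 165 and 106 CPM against 50.6 and 51.6 CPM (1.5 ± 0.31, adjusted p = 0.171).

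Surface molecules by which macrophages meet lymphocytes and metabolites were mixed. Of 16 checkpoint and costimulation genes with the required level, 4 were higher (Cd274, Cd40, Icosl and Havcr2) and 3 lower (Siglecg, Vsir and Pirb). Cd274, which encodes the T cell inhibitor PD-L1, stood at 217, 774, 189 and 251 CPM in TAM and 34.4 and 26.4 CPM in naive macrophages (3.58 ± 0.61, adjusted p = 0.128). Havcr2, the receptor TIM-3, stood at 159, 76.5, 87.0 and 88.7 CPM against 32.2 and 20.04 CPM (2.11 ± 0.41, adjusted p = 0.158). Siglecg, a sialic acid receptor of B cells and some macrophages, stood at 5.05, 12.1, 12.2 and 8.14 CPM against 57.5 and 107 CPM (-3.0 ± 0.41, adjusted p = 0.106).

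Among receptors for protons and metabolites, 5 of 21 were higher (Gpr132, Gpr35, Adora2a, Adora2b and Ptger4) and 2 lower (Ptger2 and S1pr3). Gpr35, an orphan receptor with several proposed metabolite ligands, stood at 131, 53.6, 182 and 247 CPM in TAM and 20.7 and 19.0 CPM in naive macrophages (2.98 ± 0.47, adjusted p = 0.114). Adora2a, an adenosine receptor that raises cyclic AMP, stood at 10.8, 22.7, 31.8 and 25.6 CPM against 3.65 and 4.33 CPM (2.60 ± 0.39, adjusted p = 0.114). Ptger4 and Ptger2, both prostaglandin E2 receptors, thus lay on opposite sides of the naive libraries.

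Macrophage transcription factors held 9 higher and 2 lower genes among 28. Cebpb, a driver of inflammatory and emergency myeloid programmes, stood at 364, 768, 757 and 2775 CPM in TAM and 158 and 169 CPM in naive macrophages (2.76 ± 0.69, adjusted p = 0.210). The others included Klf2, Klf4, Klf6, Egr2 and Nr4a1, which are immediate early genes as well and are counted in both lists, and Irf5, Batf3 and Bhlhe40. The lower ones were Klf15 and Tfec. Klf15, a factor of amino acid and lipid metabolism, stood at 4.01, 8.60, 0.180 and 0.309 CPM against 37.7 and 22.0 CPM (-4.44 ± 0.45, adjusted p = 0.0837).

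Among apoptosis regulators 9 of 25 were higher and 1, Bcl2l1, was lower, and both killing and sparing members were among the 9. The sparing ones were Mcl1, Birc3 and the Bcl2a1 copies a, b and d, and the killing ones Bax, Bbc3, Pmaip1 and Casp4. Cdkn1a, the cell cycle inhibitor p21, was the only higher gene of 31 in cell cycle and DNA replication, at 26.5, 75.3, 49.9 and 57.5 CPM in TAM and 6.46 and 6.23 CPM in naive macrophages (3.18 ± 0.48, adjusted p = 0.114). In the same list 5 genes were lower, a share of 16.1% beside the background of 16.2%, and the count was 22 without library 1 of TAM in contact, 23 without naive library 1 and 1 on TMM sizes.

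**Figure D3:**
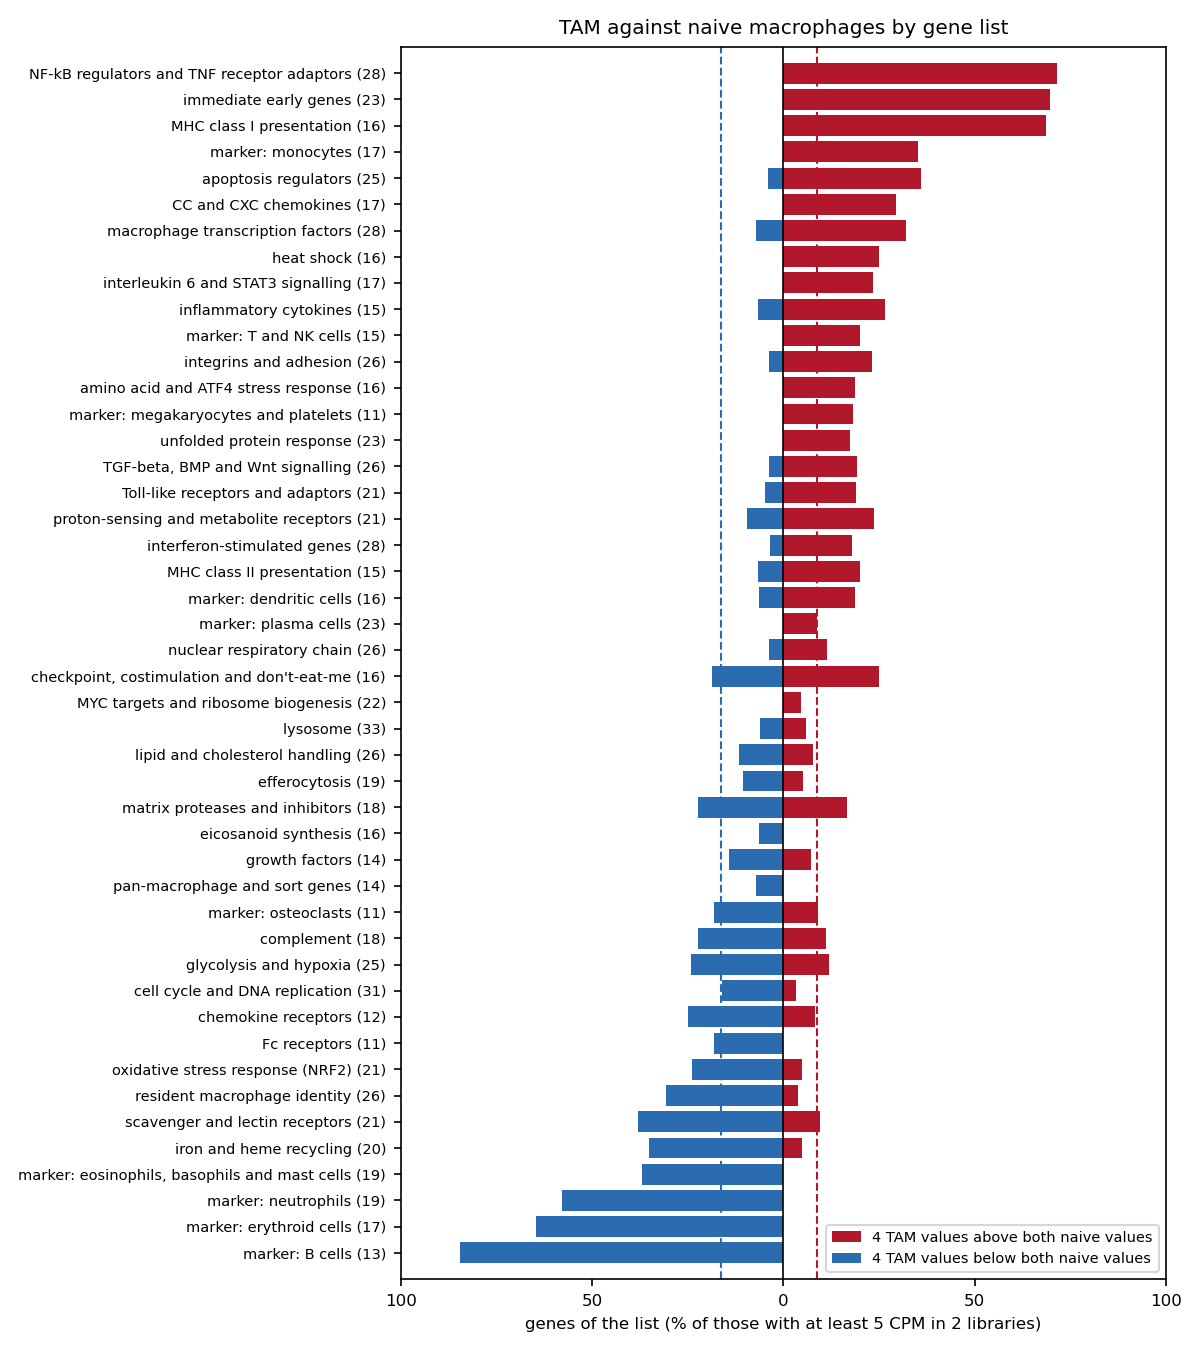
Share of each gene list with 10 or more genes at 5 CPM or more in 2 libraries (number in parentheses) that was higher in TAM (red, to the right) or lower in TAM (blue, to the left), with dashed lines at the shares over all such genes, 8.72% and 16.2%. NF-kB regulators, immediate early genes and MHC class I genes reach the furthest to the right, and the markers of B cells, erythroid cells and neutrophils the furthest to the left.

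Among lower genes the smallest p belonged to Gfra4, a receptor subunit for ligands of the glial cell line-derived neurotrophic factor (GDNF) family, on chromosome 2 (131039632 to 131043088, minus strand). It stood at 0.629, 1.55, 0.112 and 0.0949 CPM in TAM and at 43.8 and 31.9 CPM in naive macrophages, a log2 fold change of -6.66 ± 0.44 SE (adjusted p = 0.0787, DESeq2 adjusted p = 8.15e-32). Its TAM values came from 26, 48, 5 and 4 counts, against 2054 and 921 in the naive libraries. Gfra2, a second receptor subunit of the family, stood at 23, 35.2, 1.30 and 0.997 CPM against 121 and 56.7 CPM (-3.80 ± 0.36, adjusted p = 0.0837). Both were lowest in TAM in contact, and they were the only lower genes among the 3 of that family's 11 genes with the required level.

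Among genes of marrow-resident macrophages a minority was lower in all TAM libraries. Of 26 such genes with the required level 8 were lower (Siglec1, Cd163, Mrc1, Cd5l, Timd4, Marco, Fcna and Slc40a1), 1 was higher (Lyve1) and 17 overlapped, where 16.2% of all genes were lower. The list's median log2 fold change was -1.39 for TAM over naive, -2.83 when TAM in contact alone were compared and -0.11 with TAM not in contact alone, comparisons that share the naive libraries. Cd5l, a secreted inhibitor of macrophage apoptosis, stood at 213, 200, 6.70 and 3.82 CPM in TAM and 1435 and 614 CPM in naive macrophages (-4.81 ± 0.43, adjusted p = 0.0837). Fcna, a ficolin of the lectin pathway of complement, stood at 609, 924, 17.3 and 19.3 CPM against 2426 and 1176 CPM (-3.78 ± 0.39, adjusted p = 0.0837). Mrc1, the mannose receptor, stood at 635, 753, 46.7 and 24.5 CPM against 1865 and 1080 CPM (-3.09 ± 0.38, adjusted p = 0.0998).

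For all of the last 3 genes TAM not in contact lay between the other groups. Timd4, a receptor for phosphatidylserine on dying cells, stood at 17.5, 30.4, 2.02 and 0.617 CPM in TAM and 141 and 72.5 CPM in naive macrophages (-4.11 ± 0.51, adjusted p = 0.0998). Marco, a scavenger receptor, stood at 0.556, 0.161, 0 and 0 CPM against 8.32 and 7.65 CPM, and no fold is given against libraries at 0. Among residence genes outside the common response, Vcam1 (5063, 5805, 260 and 153 CPM against 8636 and 4335 CPM), an adhesion molecule, Igf1, a growth factor, and Mertk, a receptor for dying cells, were each far lower in TAM in contact while TAM not in contact overlapped with naive macrophages. Naive library 1 had more than the 1.5-fold level of naive library 2 for most of these genes, and without naive library 2 the lower genes of the list numbered 15. Without naive library 1 the median log2 fold change of the list was -0.67.

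Iron and heme recycling held a similar minority of lower genes. Of 20 such genes with the required level 7 were lower and 1, Nfe2l2, was higher, with a list median of -0.93 and 7 lower DESeq2 calls. Slc40a1, the iron exporter ferroportin, stood at 2974, 3353, 312 and 196 CPM in TAM and 8043 and 3632 CPM in naive macrophages (-2.56 ± 0.45, adjusted p = 0.132). Cd163, the receptor for haemoglobin bound to haptoglobin, stood at 79.2, 516, 8.47 and 7.14 CPM against 1256 and 568 CPM (-4.11 ± 0.72, adjusted p = 0.132). Blvrb, a biliverdin reductase, stood at 108, 87.6, 26.7 and 26.4 CPM against 221 and 116 CPM (-1.58 ± 0.29, adjusted p = 0.146). Ncoa4, the receptor that sends ferritin to the lysosome, stood at 30.0, 25.7, 17.9 and 14.2 CPM against 51.6 and 47.1 CPM (-1.07 ± 0.20, adjusted p = 0.149), the flattest of the 4. Ferritin itself (Fth1 and Ftl1) overlapped between the groups.

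Scavenger and lectin receptors held both lower and higher genes. Of 21 with the required level 8 were lower, 5 of them residence genes counted above (Mrc1, Marco, Cd163, Siglec1 and Fcna), beside Clec10a, Clec12a and Cd209f, and 2 were higher, Msr1 and Clec7a. Msr1 is the class A scavenger receptor and Clec7a the beta-glucan receptor dectin 1, with log2 fold changes of 1.76 and 1.69.

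The remaining leading lower genes were of 2 kinds. St6galnac2, Chp2 and Vstm4 had the pattern of the residence genes, with TAM in contact the lowest. Chp2, a calcineurin-like cofactor of sodium-proton exchangers, stood at 10.1, 19.7, 0.989 and 0.712 CPM in TAM and 101 and 46.4 CPM in naive macrophages (-4.23 ± 0.42, adjusted p = 0.0837). Spib and Ighd, in contrast, were nearly level over the TAM libraries. Spib, an ETS family factor of B cells and plasmacytoid dendritic cells, lies on chromosome 7 (44525993 to 44532071, minus strand). Its level stood at 7.88, 7.63, 8.27 and 5.96 CPM in TAM and 47.0 and 44.0 CPM in naive macrophages (-2.47 ± 0.22, adjusted p = 0.0837). Ighd, the heavy chain of IgD, which mature B cells carry, stood at 4.26, 5.57, 7.78 and 5.29 CPM against 41.3 and 67.1 CPM (-3.11 ± 0.29, adjusted p = 0.0837).

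The steadiest lower genes by the same rule as above included Ivd, Leng8, Dhrs11, Klhl9 and Zfp446. Ivd, the mitochondrial enzyme of leucine breakdown, stood at 56.0, 58.2, 41.5 and 45.7 CPM in TAM and 190 and 124 CPM in naive macrophages (-1.5 ± 0.23, adjusted p = 0.114). Klhl9, an adaptor of a ubiquitin ligase, stood at 38.8, 44.8, 34.8 and 35.1 CPM against 126 and 86.1 CPM. The groups lay well apart for both, and the TAM groups were close to each other.

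Features that the rule did not use were set beside those of the 10322 genes with the required level. Protein-coding genes made up 892 of the 900 higher genes (99.1%), 1625 of the 1668 lower genes (97.4%) and 10067 of the 10322 (97.5%). The X chromosome held 2.78% of the higher genes, 2.58% of the lower genes and 2.83% of the 10322, and no direction held a mitochondrially encoded gene. The median exon length was 4059 bases for higher genes, 4815 bases for lower genes and 4548 bases over the 10322. Exons overlapped those of another gene in 285 of the 900 higher, 657 of the 1668 lower and 3799 of the 10322 genes. For these genes the counts of the partners cannot be told apart without strand.

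Genes that define B cells were lower with Spib and Ighd. Of 13 B cell markers with the required level 11 were lower and 0 higher, the list median was -2.80, and DESeq2 called 15 of the 18 tested, all lower. Among these 11, Ebf1, Vpreb3, Igll1, Blk and Fcer2a lay under 5 CPM in every TAM library. They met the required level through the naive libraries alone and could only be lower, so their direction adds nothing to the count. Ms4a1, the B cell antigen CD20, stood at 2.68, 7.67, 8.36 and 5.17 CPM in TAM and 62.4 and 92.7 CPM in naive macrophages (-3.58 ± 0.44, adjusted p = 0.0998). Igll1, a surrogate light chain of B cell precursors, stood at 0.363, 0.773, 2.85 and 1.52 CPM against 18.5 and 21 CPM (-4.01 ± 0.44, adjusted p = 0.0889). The sum of the 18 markers was 1129, 389, 575 and 216 CPM in TAM and 830 and 919 CPM in naive macrophages. Cd72, which overlapped, made up most of it in library 1 of each TAM group, at 741, 16.9, 393 and 30.0 CPM in TAM against 43.9 and 62.6 CPM. With 1 naive library left out fewer genes reach 5 CPM in 2 libraries, and 6 B cell markers were then lower.

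Markers of other marrow cells lay in both directions. Of T and NK cell markers 3 of 15 were higher and 0 lower, of megakaryocyte and platelet markers 2 of 11 and 0, of dendritic cell markers 3 of 16 and 1, of stromal and endothelial markers 3 of 7 and 0, and of osteoclast markers 1 of 11 and 2. Among the higher ones, Cd3g, Gzmb, Prf1, Vwf, Xcr1, Batf3 and Ocstamp lay under 5 CPM in both naive libraries. They met the required level through TAM libraries alone and could not be lower, and Vwf stands on 2 of these lists. Cd3g, Gzmb and Prf1 are all the higher T and NK cell markers. Over all genes 8.72% were higher and 16.2% lower, and the osteoclast shares, 9.09% and 18.2%, lay close to these. Lower genes made up 57.9% of neutrophil, 64.7% of erythroid and 36.8% of eosinophil, basophil and mast cell markers. Of 19 neutrophil markers 11 were lower and 0 higher, and their summed level was 10432, 21726, 56908 and 33156 CPM in TAM and 57478 and 90102 CPM in naive macrophages. Ly6g, the defining neutrophil antigen, stood at 10.2, 27.6, 72.4 and 48.9 CPM against 128 and 190 CPM (-2.09 ± 0.41, adjusted p = 0.158). Of 17 erythroid markers 11 were lower and 0 higher, with sums of 283, 395, 280 and 143 CPM against 697 and 549 CPM. Among these 11, Klf1 and Rhd lay under 5 CPM in every TAM library. They met the required level through the naive libraries alone and could only be lower, so their direction adds nothing to the count. Slc4a1, the anion exchanger of red cells, stood at 7.42, 28.7, 13.4 and 7.59 CPM against 131 and 108 CPM (-2.98 ± 0.51, adjusted p = 0.128). Of 19 markers of eosinophils, basophils and mast cells 7 were lower and 0 higher, with sums of 352, 1412, 1922 and 1927 CPM against 3248 and 4914 CPM. In this last list Cpa3, the mast cell and basophil carboxypeptidase, stood at 3.05, 10.7, 47.4 and 37.9 CPM against 73.6 and 128 CPM (-2.42 ± 0.48, adjusted p = 0.162).

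The naive libraries thus held more transcript of 4 other cell classes than any TAM library by their marker sums, except that B cell markers summed higher in library 1 of TAM not in contact and neutrophil markers in library 1 of TAM in contact came close to naive library 1. In a bulk sample fewer cells of a type and less RNA per cell cannot be told apart, and the part of these cells in the lower genes was not tested. Genes on the marker lists of other cells numbered 40 of the 1668 lower and 19 of the 900 higher genes, beside 163 of the 10322. Neutrophil counts depended on single libraries, with 17 lower markers without library 1 of TAM in contact and 18 without naive library 1, and those of eosinophils, basophils and mast cells with 14 lower markers without naive library 1.

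**Figure D4:**
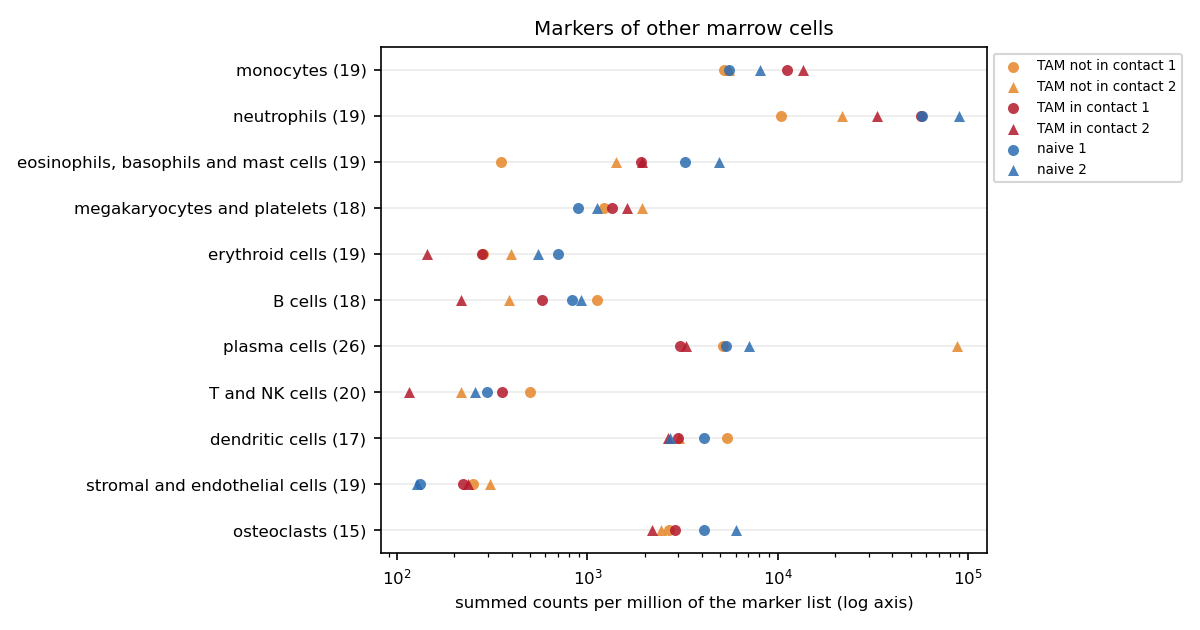
Summed CPM (log axis) of marker lists of other marrow cells, 1 point per library, with the number of genes in parentheses. Naive libraries lie to the right for erythroid cells (549 and 697 CPM against at most 395) and for eosinophils, basophils and mast cells (3248 and 4914 CPM against at most 1927), and library 2 of TAM not in contact lies far to the right for plasma cells (87510 CPM).

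Of 17 monocyte markers 6 were higher (Nr4a1, Ace, Vcan, Fn1, Cd300e and Eno3) and 0 lower, and 10 were higher without library 2 of TAM not in contact. Of the 6, Vcan lay under 5 CPM in both naive libraries and could not be lower. Ace, the angiotensin-converting enzyme of nonclassical monocytes, stood at 75.4, 31.2, 317 and 1047 CPM in TAM and 16.9 and 15.6 CPM in naive macrophages (3.72 ± 0.71, adjusted p = 0.156). Fn1, fibronectin, stood at 278, 136, 207 and 320 CPM against 36.1 and 50.4 CPM (2.59 ± 0.45, adjusted p = 0.132). The classical markers Ly6c2 and Ccr2 overlapped, Ccr2 at 191, 52.4, 925 and 618 CPM against 79.7 and 110 CPM. Summed over 19 markers the level was 5211, 5519, 11212 and 13589 CPM in TAM and 5539 and 8101 CPM in naive macrophages, so only TAM in contact lay above both naive libraries.

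Plasma cell transcripts were compared because GFP marks material from myeloma cells. Of 23 plasma cell markers with the required level 2 were higher (Xbp1 and Slamf7) and 0 lower, a share of 8.70% beside the background of 8.72%. Their sum was 5130, 87510, 3061 and 3310 CPM in TAM and 5328 and 7064 CPM in naive macrophages. The 2 plasma cell libraries had a higher level than every macrophage library for 11 of 891 higher genes found in both tables (1.23%), for 4 of 1647 lower genes (0.243%) and for 156 of 10202 genes overall (1.53%). Immunoglobulin transcripts made up 67.3% and 70.4% of the counts of the plasma cell libraries. This lowers the CPM of every other gene there, so these shares may miss genes and do not measure the input of plasma cells. Of the 900 higher genes 0 were immunoglobulin genes, against 63 of the 10322. Without library 2 of TAM not in contact 9 of the plasma cell markers were lower.

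The rule asks all 4 TAM values to lie on one side of both naive values, so it limits how far TAM libraries can differ, and the difference between the TAM groups within the common response is a description from which nothing is read. Of the 900 higher genes the TAM groups overlapped for 572, TAM in contact lay above TAM not in contact for 194 and below for 134, a separated share of 36.4% beside 49.5% over all 10322 genes. Of the 1668 lower genes they overlapped for 911, with TAM in contact above for 443 and below for 314, a separated share of 45.4%. Over all 10322 genes TAM in contact lay above for 27.7% and below for 21.9%. Between the TAM groups, edgeR called 0 (0.0%) of the 2568 genes, with a smallest adjusted p of 0.0650, 80 higher and 233 lower genes were under an unadjusted p of 0.05 (17.1% of all genes tested were), and DESeq2 called 197.

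**Figure D5:**
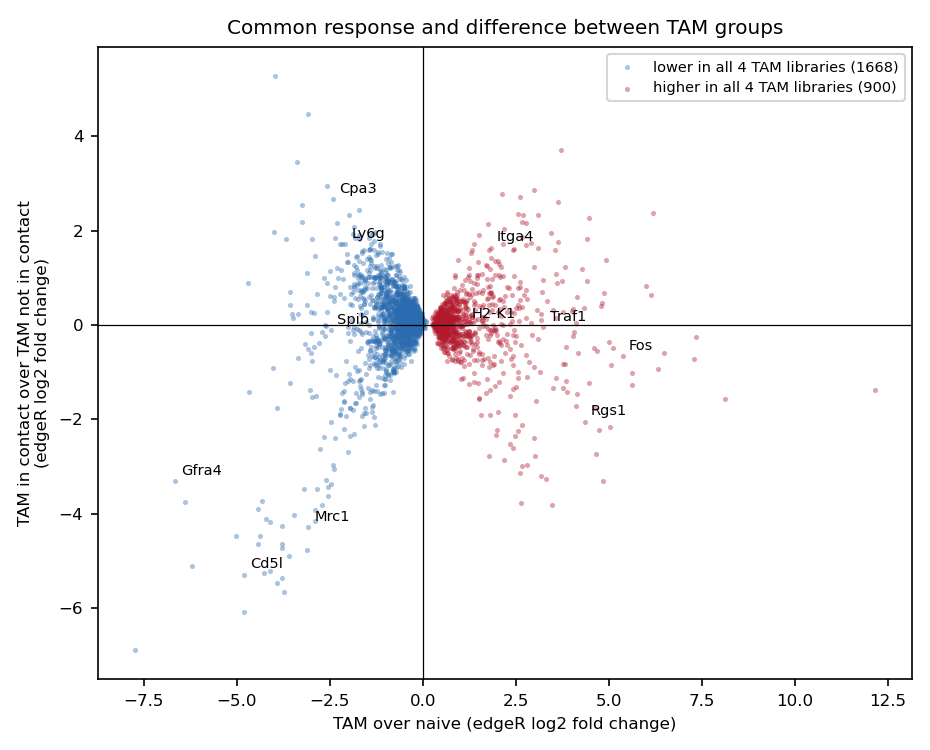
Log2 fold change of TAM over naive (horizontal) against that of TAM in contact against TAM not in contact (vertical), both from edgeR, for the 900 higher (red) and 1668 lower (blue) genes, 1 point per gene. Traf1, H2-K1 and Spib lie near the horizontal line at 0, residence genes such as Cd5l and Mrc1 far below it, and Ly6g and Cpa3 above it; fitted values of genes at 0 counts in a group, at the far left and right, are no measure of size.

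The lower genes named here lay in both directions on this second axis, which is a description of single genes. Residence and recycling genes such as Cd5l (-7.46 in contact over naive and -2.17 not in contact over naive) and Mrc1 (-5.22 and -0.95) were lowest in TAM in contact. Part of the granulocyte genes lay the other way, with Ly6g at -1.24 in contact and -2.95 not in contact and Cpa3 at -1.09 and -3.76. For Cxcr2, Mmp9, Padi4, Ctsg, Siglecf, Gata1, Gata2 and Ms4a2 of the lower granulocyte genes the TAM groups overlapped. B cell genes were mixed, with Spib at -2.52 and -2.41 and Ms4a1 at -3.37 and -3.78, while Bank1, a B cell adaptor, was lowest in TAM in contact (129, 129, 32.0 and 27.2 CPM over the 4 TAM libraries), and Igll1 lay the other way. Among higher genes, Itga4, an integrin subunit that binds VCAM1, stood at 101, 55.2, 184 and 296 CPM against 43.2 and 42.5 CPM, with 2.65 in contact over naive and 1.01 not in contact, and Rgs1 lay the other way at 3.33 and 5.38.

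Metabolic and stress lists were close to the background or divided. Of 25 glycolysis and hypoxia genes 6 were lower and 3 higher, with Hk3, a hexokinase of granulocytes and myeloid cells, at 213, 288, 415 and 278 CPM in TAM and 628 and 929 CPM in naive macrophages (-1.26 ± 0.30, adjusted p = 0.209), and Slc2a1, the glucose transporter GLUT1, at 37.0, 53.1, 33.4 and 41.1 CPM against 21.9 and 25.1 CPM (0.95 ± 0.25, adjusted p = 0.214). On TMM sizes 5 of this list were higher, and 12 were lower without naive library 1. Of 21 targets of NRF2 5 were lower (Gclc, Gclm, G6pdx, Pgd and Mgst1), 3 on TMM sizes, and 1, Nfe2l2 itself, was higher. Gclm, the regulatory subunit of glutathione synthesis, stood at 80.8, 71.8, 65.8 and 47.1 CPM against 166 and 109 CPM (-0.92 ± 0.25, adjusted p = 0.224). The other 15 genes of this list overlapped, and its share of lower genes, 23.8%, stood beside the background of 16.2%.

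Of 23 genes of the unfolded protein response 4 were higher (Atf6, Herpud1, Dnajb11 and Xbp1) and 0 lower, and without either naive library 7 were higher. Atf6, a sensor of misfolded protein in the endoplasmic reticulum, stood at 163, 229, 184 and 148 CPM in TAM and 61.5 and 52.6 CPM in naive macrophages (1.80 ± 0.26, adjusted p = 0.111). Library 2 of TAM not in contact, the one with the high immunoglobulin share, was the highest TAM library for all 4 genes, and the part of plasma cell transcripts in this result was not tested. Lysosomal genes, 2 higher and 2 lower of 33, and respiratory chain genes, 3 higher and 1 lower of 26, overlapped for the most part, although 17 respiratory chain genes were higher without library 2 of TAM not in contact and 7 on TMM sizes.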

How the data were processed

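RNA of sorted macrophages and plasma cells was made into libraries with a SMART-Seq v4 kit (per the labels' protocols), whose full-length libraries carry no strand mark. The authors deposited whole-number read counts per gene in 1 table of 6 macrophage libraries and 1 of 2 plasma cell libraries. Alignment with STAR, counting with featureCounts, DESeq2 1.26 and builds named mm10 and GRCm38 are credited to the submitters' processing notes. The annotation release, strand setting and treatment of multiply mapped reads were not given in the sources used here. Reads of overlapping genes on opposite strands therefore cannot be told apart.

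Of 47643 identifiers 47224 matched GENCODE M21, which gave names and coordinates (from 1, whole gene), and the rest took up to 0.117% of the counts. CPM were counts over the library total. One edgeR 4.0.16 quasi-likelihood model (R 4.3.3) with 3 groups was fitted to the deposited counts of the 6 libraries with TMM scaling and filterByExpr (minimum count 10, minimum total count 15), which kept 15522 genes and 3 residual degrees of freedom, and the mean of the TAM groups was contrasted with naive macrophages. A call is an adjusted p (Benjamini-Hochberg) under 0.05. DESeq2 1.42.0 and limma 3.58.1 (voom) were alternatives, beside other scalings, filters, a replicate block and each library left out. Fold changes are log2 with standard errors. Scripts were tested on simulated data. Other steps used Python 3.11.15.

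The members and the 49 lists (984 distinct genes, 978 in the table) were chosen with earlier results of these data known. The text names the cytokines of the title and sort genes, the 10 genes per direction with the smallest p (mean log2 CPM of 3 or more), the 6 per direction with the smallest spread over TAM, up to 4 genes per list by p, and genes at the edge of the rule. Members of a list named with a count, and the genes set beside them (Rel, Nfkb1, Tnfaip3, Tnfrsf1a, Tnfrsf1b, B2m, Vcam1 and Ccr2 among them), were chosen after their values were seen. Promoter windows are RefSeq's on GRCm38.p6. The limit behind a 0 is 3 counts, which is 0.0640 to 0.104 CPM and covers counting error only, since the labels name no molecular identifiers and PCR copies may be counted more than once.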

Additional observations from a re-analysis of the deposited data

Results flagged for a closer look

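In 6 of the 102 named genes 1 TAM library lay farther from the other 3 than Dixon's 95% critical value for 4 samples allows. Chance marks about 1 in 20 such groups, so a count of 6 is near that rate. Library 2 of TAM not in contact was the outlying one for Il1b, at 1735 CPM against 322 to 420 CPM in the other TAM libraries, for Bcl2a1d, at 6.06 CPM against 16.2 to 17.1 CPM, and for Ptprc, at 844 CPM against 1943 to 2102 CPM. Library 2 of TAM in contact was the outlying one for Nupr1, at 102 CPM against 39.6 to 45 CPM, and for Cxcl10, at 17.1 CPM against 157 to 227 CPM. For Adgre1 it was library 1 of TAM not in contact, at 1223 CPM against 519 to 600 CPM. For Il1b, Bcl2a1d, Nupr1 and Cxcl10 the outlying TAM value still lay on the same side of both naive values as the other 3.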

How the results depend on the processing

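For TAM over naive edgeR called 0 genes, DESeq2 1138, edgeR without a low count filter 1543, and edgeR with bias-adjusted quasi-dispersions 2, both lower. With 1 library left out the count ran from 0 to 929, with 929 (247 higher, 682 lower) without library 2 of TAM not in contact, 226 without library 1 of that group and 0 without any other. The cause of these differences was not tested. Between the TAM groups, within the common response, DESeq2 called 197 genes, no filter gave 198, a filter of 5 CPM in 2 libraries 6, bias-adjusted quasi-dispersions 4, and left-out libraries 0 to 134, the 134 without library 1 of TAM not in contact. A replicate block gave 0 calls for TAM over naive (smallest adjusted p 0.101) and 3 for the TAM groups; the numbers are not taken as pairs, since not every pair of groups had clearly correlated deviations of same-numbered libraries (0.190, 0.195 and 0.0809) and the libraries of mouse 2 differ in sex.

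The common response held 444 genes at a 1.5-fold gap (177 higher, 267 lower), 1456 higher and 1048 lower genes on TMM sizes, and with 1 library left out 3017 to 4485 in all, 952 to 1928 higher and 1986 to 2830 lower. Naive library 1 gave 4377 and library 2 of TAM not in contact 4485. Leaving out a library relaxes the rule by its construction. Tnf had a log2 fold change of 3.29 with DESeq2 and with no filter and 1.18 to 3.77 with a library left out, 3.77 being past the threshold (adjusted p = 0.0425), and Il6 had 0.51 to 2.55. Over 1528 values of 102 named genes 1524 kept their direction. The exceptions were Adgre1, at 0.05 without library 2 of TAM not in contact and 0.41 without naive library 1 (range -0.55 to 0.41), and Cd68, at -0.17 without library 1 of TAM not in contact and -0.14 without naive library 2 (range -0.17 to 0.91); the cause was not tested. DESeq2 called 95 of these genes, no filter 87, limma-voom 0 and the RLE scaling 0. Choices made after seeing the data were the list counts with a library left out, on TMM sizes and without immunoglobulin genes. Left-out libraries kept NF-kB regulators at 20 to 23 higher genes, immediate early genes at 16 to 19 and MHC class I genes at 11 to 13. The number of libraries, 2 a group, limits the precision.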

Other observations

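Lists of matrix and adhesion genes held further higher genes, where 8.72% of all genes with the required level were higher and 16.2% lower. Of 14 growth factor genes with that level 1 was higher (Gdf3, a share of 7.14%) and 2 lower (Fgf1 and Inhba). Of 8 collagen and matrix genes with the required level 4 were higher (Fn1, Sparc, Spp1 and Vcan) and 1 lower (Nid2), and of 26 integrin and adhesion genes 6 were higher (Itga4, Itga5, Itgax, Itgb1, Pecam1 and Esam) and 1, Itgam, lower. Itga5, the fibronectin receptor subunit that pairs with Itgb1, stood at 79.2, 109, 71.7 and 39.9 CPM in TAM and 23.6 and 34.2 CPM in naive macrophages (1.47 ± 0.33, adjusted p = 0.196). Its ligand Fn1 was among the higher genes as well. Matrix proteases and inhibitors divided, with 3 of 18 higher (Adam10, Adam17 and the inhibitor Timp3) and 4 lower (Mmp8, Mmp9, Mmp25 and Adam8, which neutrophils carry).

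Of 26 genes of TGF-beta, BMP and Wnt signalling 5 were higher (Tgfbr1, Tgfbr3, Smad5, Skil and Tgif1) and 1 lower (Lef1), and 12 were higher without naive library 1. Of 16 heat shock genes 4 were higher (Hspa1a, Hspa1b, Hspa8 and Bag3), 8 without naive library 2, and Hspa1b stood at 7.21, 225, 9.51 and 40.2 CPM in TAM and 1.49 and 2.18 CPM in naive macrophages, with the same 2 TAM libraries high as for the immediate early genes. Lyve1, a hyaluronan receptor and the only higher residence gene, stood at 228, 53.7, 24.1 and 12 CPM against 5.97 and 11.7 CPM, with TAM not in contact the highest.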
